A study of Mus musculus with 8 samples.

Results

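Embryonic skeletal muscle is built from a set of contractile genes, and 39 of them were followed in Bapx1-EGFP cells sorted from the forelimbs of wildtype and Bapx1 null mouse embryos. The genes were listed by name, but with earlier results of these data known, so the list is not blind to their values. They encode the filaments of the sarcomere and the proteins that anchor and assemble them. Others encode calcium-handling and energy proteins, and receptors and adhesion proteins of the muscle surface. The platform annotation names probes for 36 of the 39 (81 of 45281 probes on the array, among 19057 named genes), while the expression of Myh3, Tnnt2 and Mybph was not analysed here. In the null, 11 of the 25 member genes that could be tested were lower and 0 were higher.

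The sarcomere is the repeating unit of striated muscle. Thin filaments of actin, tropomyosin and troponin are anchored at the Z-disc and slide past thick filaments of myosin, whose heavy chains each carry an essential and a regulatory light chain. Calcium released from the sarcoplasmic reticulum binds troponin C and exposes actin to myosin, and titin spans from the Z-disc to the M-band. Embryonic limb muscle, formed by cells that migrate from the somites, expresses embryonic, cardiac and slow isoforms alongside fast ones before fibre types separate.

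Both groups were E12.5 embryos of strain C57BL/6J;129, and both carried EGFP at the Bapx1 locus, a homeobox gene active in the limb mesenchyme. The wildtype kept a working gene, with an IRES-driven reporter added 3′ of its coding part and, as the study writes it, on one allele. In the null the reporter was placed at the start codon of both alleles, which removes the start of the coding part. How the reporter was built and how many copies were present thus went with genotype, and any influence of these on which cells were sorted and the effect of genotype cannot be told apart. Fluorescent forelimb cells of 4 wildtype and 4 null samples, described in the methods as biological replicates, were hybridised to 1 Illumina mouse array each. How many embryos went into a sample is not given in the sources used here.

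Each array detected 19840 to 20879 of the probes (43.8% to 46.1%), and the 20593 that reached detection on at least 4 of the 8 arrays were tested. Values are log2 intensities after background correction and quantile normalization. Single values are compared between arrays for 1 probe at a time. Sums over gene lists add the linear intensities of different probes, and each sum is likewise compared between arrays. Precision is limited by having 4 arrays in each group. The probe of Bapx1 itself was not above background on any of the 4 arrays labelled wildtype and was detected on all 4 labelled null (at least 3.40-fold higher under each of 3 background treatments). Where that probe lies relative to the removed stretch and the reporter was not analysed here, so it does not check the labels, and each direction given here rests on them. The cartilage regulator gene Sox9, a marker of the skeletogenic limb mesenchyme, was detected on all arrays. It lay between 13.99 and 14.10 in the wildtype and between 13.82 and 14.21 in the null. Sox9 is 1 of 9 limb chondrogenic marker genes tested, of which only Bapx1 passed, as higher (median log2 change 0.20, 1 gene below zero). At an unadjusted p under 0.05 (limma), 4 were higher (Bapx1, Col2a1, Col9a1 and Prrx1) and 1 was lower. Null replicates 2 and 3 stood apart for sex-linked genes, with Xist at 9.0 and 6.59 against 10.58 to 12.03 on the other 6 arrays. They also had the highest Eif2s3y and Kdm5d, and the effect of these arrays is given with the results it touches. Y-linked level also differed between the groups. Eif2s3y passed as higher in the null (10.04 to 10.48 in the wildtype, 10.68 to 11.47 in the null, adjusted p = 0.037 by limma). Kdm5d did not pass, but its groups did not overlap (7.78 to 8.36 and 8.46 to 9.68), while the groups of Uty overlapped. Y-linked level and genotype thus cannot be fully told apart.

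Contractile genes passed as lower in the null in 4 of the 6 roles considered here. The roles without a call, calcium handling and the muscle surface, held 2 and 3 tested genes, all with changes below zero. Of the 25 tested, 11 passed as lower (limma, Benjamini-Hochberg adjustment over all 20593 probes, threshold 0.05), against 2.71% of all 11037 tested genes. None passed as higher, against 2.20% of all genes (4.91% passed in either direction). By probe, 15 of 40 tested member probes were lower and 0 higher, against 2.12% and 1.83% of all probes (3.94% together). The 15 include a dim Myl1 probe that was detected on 4 wildtype and 0 null arrays. That probe passed the filter through the wildtype alone and gives only a bound. At an unadjusted p under 0.05, 15 of the 25 genes were lower and 0 higher. The share of all genes at this threshold was not counted, so no unadjusted count given here has a background beside it. Changes below zero were found in 23 of the 25 genes and in 46.8% of all genes. The median log2 change of the 25 was -0.45, with a range from -1.29 to 0.08, and the median of all genes was 0.012. All 11 genes that passed had every null array below every wildtype array, a pattern seen in 7.36% of all tested genes (14.5% counting both directions). In RNA from a sorted population, fewer muscle cells and less contractile RNA per muscle cell cannot be told apart.

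**Figure D1:**
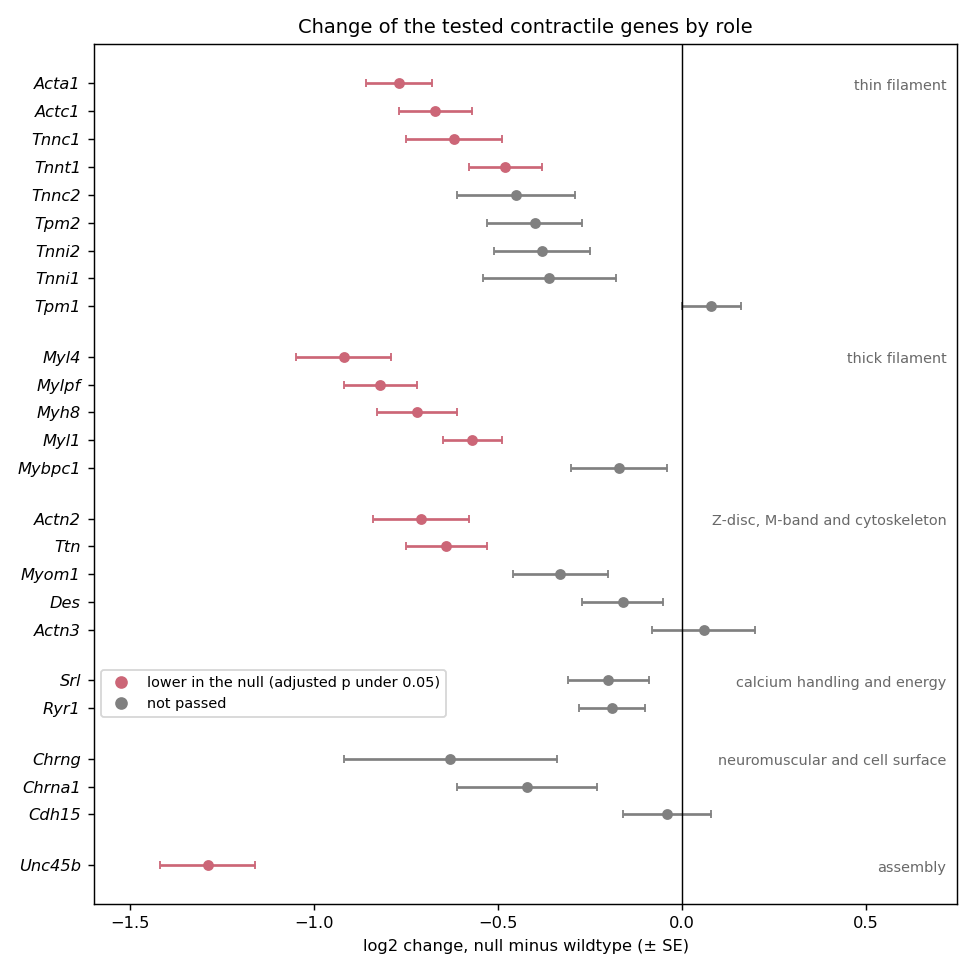
Log2 change (null minus wildtype, horizontal axis) with its SE for the 25 tested contractile genes, each by its brightest probe and grouped by role. Red points passed the test as lower and grey points did not pass; Unc45b lies farthest left at -1.29 and Tpm1 farthest right at 0.08.

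Marker genes of blood cells were also lower in the null. Of 12 platelet genes 11 were lower (median -2.57), and their summed linear intensity was 11500 to 20900 in the wildtype and 904 to 3540 in the null. Of 11 macrophage genes 10 were lower (median -1.62), with sums of 2040 to 3360 and 595 to 871. The macrophage genes Tyrobp, C1qb and C1qc and the platelet gene Gp6 were detected on 4 wildtype and 0 null arrays. These passed the filter only through the wildtype, so their changes are only bounds, though they enter the counts, medians and sums. Of 10 endothelial genes 3 were lower (median -0.41, sums 1540 to 2030 and 1360 to 1630), while none of 9 erythroid genes passed (3 lower and 0 higher at an unadjusted p under 0.05, median -0.33). The summed level of the tested contractile genes was 11500 to 12200 in the wildtype and 9400 to 10800 in the null. This was a smaller step than that of the platelet or macrophage sums. The step is damped by Tpm1, the largest term of the sum, which did not pass (12.33 to 12.46 in the wildtype, 12.38 to 12.61 in the null). By median, too, the contractile change (-0.45) was smaller than that of the platelet and macrophage genes. The part of blood and endothelial cells in the contractile result was not tested. Skeletal muscle itself was represented by its markers Mylpf and Acta1, which are members themselves and were detected on all 8 arrays. Its further markers were detected on fewer arrays, with Myog on 4 wildtype and 3 null arrays and Myod1 on 1 wildtype array only. The heart genes Myh6, Nppa and Myl7 and the smooth muscle genes Myh11 and Tagln were detected on no array. Other genes of these lists were present: 6 of 12 smooth muscle genes could be tested, of which Acta2, Actg2, Smtn, Mylk and Des (also a member here) were detected on all 8 arrays, and of 12 cardiac genes 2 could be tested, of which Ryr2 was detected on all 8.

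Short elements known from muscle promoters lie just upstream of several genes that passed, and the stretches are shown because textbook carriers of such elements, the skeletal and cardiac actin genes, are among them. RefSeq windows of 250 bases before to 50 after the transcript start (GRCm38.p6) were found for 32 of the 39 members, Tnnt2 and Mybph among them. They were searched on both strands for the E-box CAGCTG, read by myogenic bHLH factors, for the CArG box, read by serum response factor, for the MEF2 site and for the M-CAT letters CATTCC. Matches of different motifs overlapped in 0 cases. Each line below reads 5′ to 3′ on the gene's strand, with the matched letters in capitals.
Acta1 CArG box at -73, chr8:123894830-123894857, minus strand: gcccgacacCCAAATATGGcttgggaag
Actc1 CArG box at -47, chr2:114052904-114052931, minus strand: ctaaggcgaCCAAATAAGGcaaggtggc
Acta1 E-box at -221, chr8:123894980-123895007, minus strand: ggaggggcagaCAGCTGgggatactctc
Myl1 E-box at -224, chr1:66945264-66945291, minus strand: ggtacgtctgtCAGCTGtcaccaaacca
Mylpf E-box at -51, chr7:127211546-127211573, plus strand: ttcctgggctcCAGCTGctgcaggcctc
Ttn MEF2 site at -166, chr2:76982695-76982722, minus strand: tctgaaaggCTAAATTTAGcactgccaa
The CAGCTG E-box was present in a window of 14 of the 32 members and of 18.3% of all 27025 genes. Among the 11 genes that passed, 3 held it (Acta1, Myl1 and Mylpf). The CArG box was rarer, with 4 of 32 members (Acta1, Actc1, Myl3 and Myom1) and 1.81% of all genes. Only Ttn among the members held the MEF2 site (0.636% of all genes), and CATTCC occurred in 9 of 32 (16.6% of all genes). A match describes letters in a window, not occupancy in these cells, and the search was not limited to expressed genes.

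Among the thin filament genes, 4 of 9 tested were lower, with a median change of -0.45. Acta1, the actin of adult skeletal muscle, stood at 7.75, 7.92, 7.82 and 8.05 in wildtype replicates 1 to 4 and at 7.12, 6.99, 7.09 and 7.25 in null replicates 1 to 4. Every null array lay below every wildtype array, and the null mean was 58.6% of the wildtype level. The means were 7.88 ± 0.13 (SD, n = 4) and 7.11 ± 0.11 (SD, n = 4), a change of -0.77 ± 0.09 (SE) with an adjusted p of 0.0023 by limma. Permuting the arrays over all 70 assignments (exact, two-sided) gave p = 0.029, the smallest value this design allows.

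Actc1, the cardiac actin that embryonic skeletal muscle also uses, followed. Its brightest probe read 9.84, 9.80, 9.66 and 9.70 in the wildtype and 9.29, 8.92, 8.93 and 9.18 in the null. The null arrays fell into a higher pair (replicates 1 and 4) and a lower pair (replicates 2 and 3), all below the wildtype. The change was -0.67 ± 0.10 (SE, adjusted p = 0.0077), and a second probe gave -0.60 ± 0.12 (adjusted p = 0.022). With the level of Y-linked genes as a term the call was lost (-0.49, adjusted p = 0.056).

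The troponin complex makes the thin filament sensitive to calcium. The troponin genes that passed, Tnnt1 and Tnnc1, were slow isoforms, while the slow isoform Tnni1 did not pass. Tnnt1, slow troponin T, which ties the complex to tropomyosin, read 9.37, 9.16, 9.09 and 9.23 in the wildtype and 8.95, 8.64, 8.63 and 8.71 in the null (change -0.48 ± 0.10, adjusted p = 0.028). Tnnc1, the calcium-binding troponin C of slow and cardiac muscle, read 7.82, 8.10, 7.93 and 8.23 against 7.68, 7.23, 7.23 and 7.44 (change -0.62 ± 0.13, adjusted p = 0.027). In both genes null replicate 1 was the highest null array and came close to the lowest wildtype array. These calls were fragile. Tnnt1 did not pass without any of wildtype replicates 1, 2 and 4 (-0.43, -0.50 and -0.47) or null replicates 2, 3 and 4 (-0.45, -0.45 and -0.47), with adjusted p from 0.064 to 0.089. Tnnc1 did not pass without any of wildtype replicates 2, 3 and 4 (-0.60, -0.66 and -0.56) or null replicates 2, 3 and 4 (-0.57, -0.57 and -0.64), with adjusted p from 0.0523 to 0.082.

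The other 3 tested troponin genes did not pass. Tnni1, slow troponin I, had a value of -0.36 ± 0.18 (adjusted p = 0.36), with detection on 4 wildtype and 2 null arrays. The fast isoforms Tnni2 and Tnnc2, which inhibit and trigger the complex, had values of -0.38 ± 0.13 (adjusted p = 0.18) and -0.45 ± 0.16 (adjusted p = 0.16). Since a value such as that of Tnnc2 is close to that of Tnnt1 but more variable, a difference between slow and fast troponins was not tested and is not claimed.

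Tropomyosin lies along actin and blocks or opens its myosin sites, and neither of its genes passed by its brightest probe. Tpm1, which many non-muscle cells also transcribe, read 12.37, 12.33, 12.46 and 12.34 in the wildtype and 12.40, 12.38, 12.46 and 12.61 in the null. The groups overlapped, the change was 0.08 ± 0.08 (adjusted p = 0.65), and its other probes gave 0.03 ± 0.08 and 0.13 ± 0.11. Tpm2, the beta tropomyosin of muscle, read 9.20, 9.03, 9.0 and 9.26 against 9.05, 8.56, 8.45 and 8.82 by its brightest probe, which did not pass (-0.40 ± 0.13, adjusted p = 0.15). Its second probe passed as lower (-0.60 ± 0.14, adjusted p = 0.042), although null replicate 1 at 8.35 lay just above wildtype replicate 3 at 8.33. With array weights the brightest probe passed as well (-0.54, adjusted p = 0.012).

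**Figure D2:**
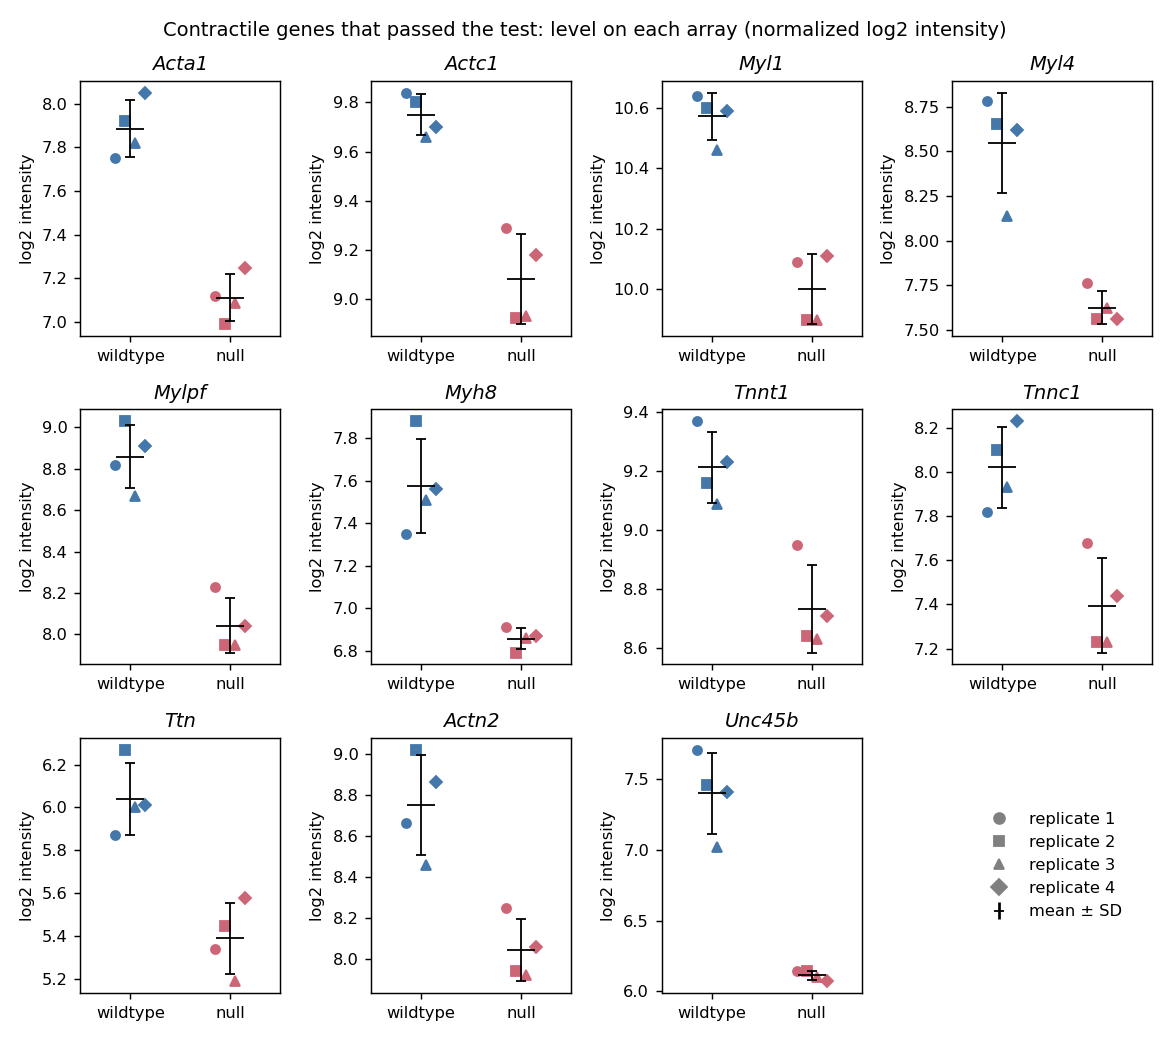
Normalized log2 intensity (vertical axis, own scale in each panel) of the 11 contractile genes that passed as lower in the null, on 4 wildtype arrays (blue) and 4 null arrays (red), with mean and SD. In each panel every null array lies below every wildtype array, and in Unc45b the 4 null arrays fall between 6.07 and 6.14.

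Thick filament genes were lower by more than those of the thin filament, at least in their median: 4 of 5 tested passed, with a median of -0.72. This difference between the groups of genes was not tested. Myl4, the essential light chain of embryonic muscle and of the atrium, read 8.78, 8.65, 8.14 and 8.62 in the wildtype and 7.76, 7.56, 7.62 and 7.56 in the null. The lowest wildtype array, replicate 3, still lay above the whole null range. The means were 8.55 ± 0.28 (SD, n = 4) and 7.62 ± 0.09 (SD, n = 4), and the change of -0.92 ± 0.13 (SE, adjusted p = 0.0057) left 52.8% of the wildtype level.

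Mylpf, the regulatory light chain of fast skeletal myosin, was measured by 2 probes that gave similar values. The brighter read 8.82, 9.03, 8.67 and 8.91 in the wildtype and 8.23, 7.95, 7.95 and 8.04 in the null, or 8.86 ± 0.15 and 8.04 ± 0.13 (SD, n = 4). The dimmer read 7.5, 7.37, 7.14 and 7.41 against 6.19, 6.90, 6.52 and 6.30. By the brighter probe null replicate 1 was the highest null array, by the dimmer probe it was the lowest, and by neither did the groups overlap. The changes were -0.82 ± 0.10 (SE, adjusted p = 0.0029) and -0.88 ± 0.15 (SE, adjusted p = 0.014), with 56.8% and 54.3% of the wildtype level left, and the exact two-sided permutation test of the brighter probe again gave its smallest p of 0.029.

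Myl1, the essential light chain of fast myosin, was lower by a smaller margin and with little spread. Its bright probe read 10.64, 10.60, 10.46 and 10.59 in the wildtype and 10.09, 9.90, 9.90 and 10.11 in the null (change -0.57 ± 0.08, adjusted p = 0.0062). A dim probe was detected on all 4 wildtype arrays and on 0 null arrays, so it gives only a bound, at least 1.23-fold higher in the wildtype after the background correction used here and at least 1.10-fold under the least favourable of 3 treatments (fitted change -0.66 ± 0.10, adjusted p = 0.0061).

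Myh8, the perinatal myosin heavy chain, gave different answers by probe. The brightest read 7.35, 7.88, 7.51 and 7.56 in the wildtype and 6.91, 6.79, 6.86 and 6.87 in the null, with no overlap (change -0.72 ± 0.11, adjusted p = 0.0078). The other probes changed by -0.03 ± 0.11 (adjusted p = 0.92) and -0.32 ± 0.18 (adjusted p = 0.42), and their groups overlapped. Skeletal myosin heavy chain genes are close copies of each other, and which transcripts each probe binds was not analysed here. Mybpc1, the slow form of myosin-binding protein C, read 5.49, 5.26, 5.36 and 5.35 in the wildtype and 5.46, 4.91, 5.04 and 5.36 in the null (change -0.17 ± 0.13, adjusted p = 0.54). It was detected on 4 wildtype and 2 null arrays and lay near background throughout.

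**Figure D3:**
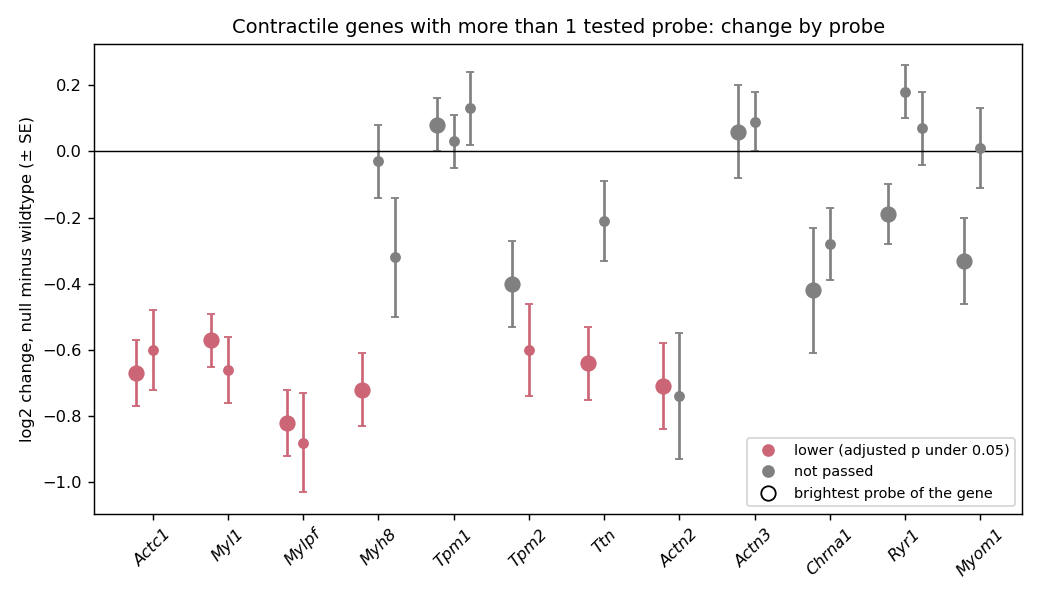
Log2 change with SE (vertical axis) of every tested probe of the 12 contractile genes that have more than 1, with the brightest probe drawn larger; red probes passed as lower. The probes of Actc1, Myl1 and Mylpf lie close together, whereas those of Myh8, Ttn and Tpm2 differ in whether they passed. The dim Myl1 probe was detected on 0 null arrays and gives only a bound.

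The myosin chaperone gene Unc45b, whose product folds the myosin motor domain during filament assembly, had the largest change of the 25. It read 7.71, 7.46, 7.02 and 7.41 in the wildtype and 6.14, 6.14, 6.10 and 6.07 in the null. The wildtype arrays spread over a wider range than the null arrays, which were nearly level. The means were 7.40 ± 0.29 (SD, n = 4) and 6.11 ± 0.03 (SD, n = 4), the change was -1.29 ± 0.13 (SE, adjusted p = 0.0011), and 40.9% of the wildtype level remained. It was the only member that passed under each of the 13 other settings tried, with values from -1.38 to -0.88. Smyd1, the methyltransferase that acts with it in myosin assembly, was detected on no array.

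Of 5 tested genes of the Z-disc, M-band and cytoskeleton, 2 were lower, and the median was -0.33. Actn2, the alpha-actinin that crosslinks thin filaments at the Z-disc, read 8.66, 9.02, 8.46 and 8.86 in the wildtype and 8.25, 7.94, 7.92 and 8.06 in the null, with no overlap (change -0.71 ± 0.13, adjusted p = 0.017). A second probe had a similar size and no overlap but did not pass (-0.74 ± 0.19, adjusted p = 0.064). The call of the first was lost without wildtype replicate 4 (-0.67, adjusted p = 0.058) or null replicate 2 (-0.67, adjusted p = 0.056). Actn3, the fast alpha-actinin, showed no such step: it read 5.46, 5.26, 5.32 and 5.47 against 5.82, 5.25, 5.53 and 5.12, and its change of 0.06 ± 0.14 (adjusted p = 0.89) turned to -0.08 without null replicate 1 and to -0.02 with array weights.

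Titin, the spring that holds thick filaments in the middle of the sarcomere, is covered by 12 probes, of which 10 were too dim to test. The brighter of the tested probes read 5.87, 6.27, 6.00 and 6.01 in the wildtype and 5.34, 5.45, 5.19 and 5.58 in the null (change -0.64 ± 0.11, adjusted p = 0.014). The groups were separate, by a gap smaller than the range within either. The second probe was detected on 2 arrays of each group and did not pass (-0.21 ± 0.12, adjusted p = 0.44). Myom1, the M-band crosslinker of thick filaments, read 7.10, 6.95, 6.77 and 7.06 in the wildtype and 7.0, 6.57, 6.49 and 6.51 in the null, so that 3 null arrays lay below the wildtype and replicate 1 among it (change -0.33 ± 0.13, adjusted p = 0.22). Des, the desmin of intermediate filaments, had a value of -0.16 ± 0.11 (adjusted p = 0.50).

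None of the 5 tested genes for calcium handling and the muscle surface passed in limma. By brightest probe, 0 reached an unadjusted p under 0.05. The median change was -0.19 for calcium handling and -0.42 for the muscle surface, and a difference from the other roles was not tested. Ryr1, the calcium release channel of the sarcoplasmic reticulum, changed by -0.19 ± 0.09 (adjusted p = 0.35) by its brightest probe and by 0.18 ± 0.08 (adjusted p = 0.29) and 0.07 ± 0.11 (adjusted p = 0.80) by the others, so its direction was not settled. Srl, the luminal calcium-binding protein sarcalumenin, had a value of -0.20 ± 0.11 (adjusted p = 0.38). Chrng, the fetal subunit of the muscle acetylcholine receptor, read 6.20, 6.46, 5.73 and 6.57 in the wildtype and 6.50, 5.49, 5.27 and 5.15 in the null. Null replicate 1 lay at the level of the brightest wildtype arrays while the other 3 null arrays lay below the whole wildtype range. The change was -0.63 ± 0.29 (adjusted p = 0.31) with that array and -0.94 (adjusted p = 0.041) without it. Chrna1, the receptor subunit that carries the main ligand-binding face, had values of -0.42 ± 0.19 (adjusted p = 0.29) and -0.28 ± 0.11 (adjusted p = 0.20) by its probes. The dimmer of these Chrna1 probes, the latter, had an unadjusted p of 0.023 by limma. Cdh15, M-cadherin, an adhesion protein of myoblasts, read 6.20, 5.97, 5.85 and 6.14 against 6.23, 5.78, 6.02 and 5.97 (change -0.04 ± 0.12, adjusted p = 0.90).

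**Figure D4:**
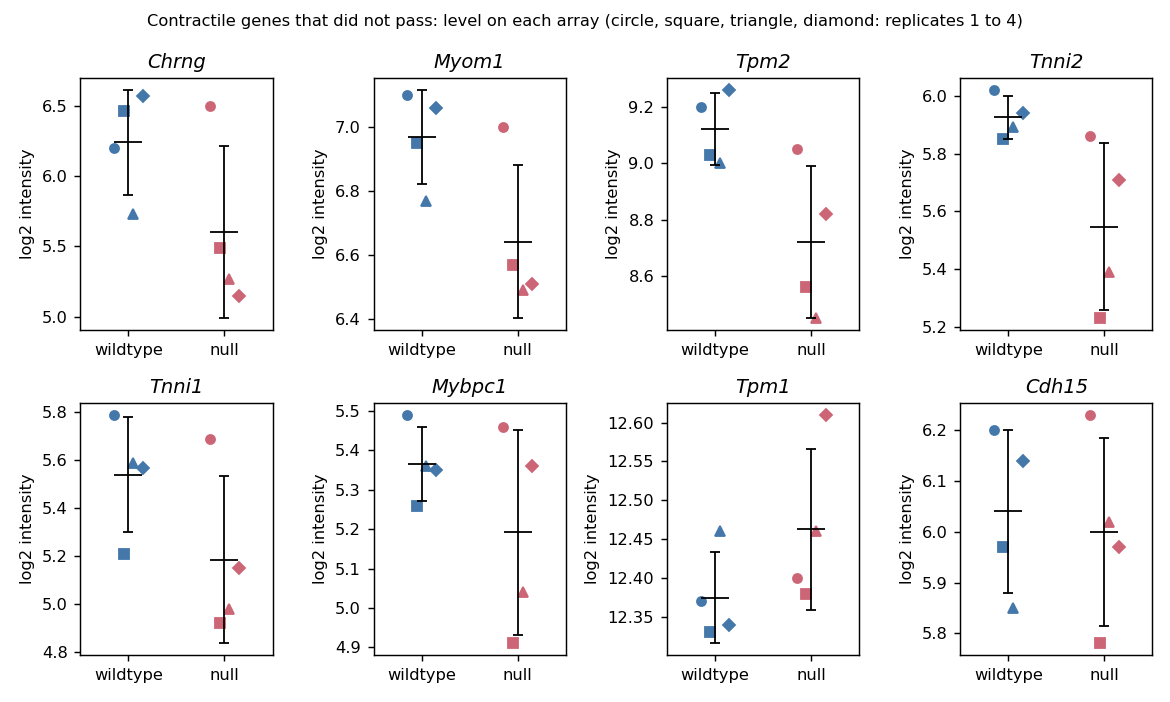
Normalized log2 intensity (vertical axis, own scale in each panel) of 8 contractile genes that did not pass by their brightest probe, on 4 wildtype (blue) and 4 null arrays (red), with mean and SD. Null replicate 1 (circle) is the highest null array in Chrng, Myom1, Tpm2, Tnni2, Tnni1, Mybpc1 and Cdh15, but not in Tpm1.

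A further 11 members had named probes but too little signal to test. Myl2 and Myl3, light chains of slow and cardiac muscle, Myh7, the slow myosin heavy chain, Neb, the thin filament ruler nebulin, Casq1, a calcium-binding protein of the sarcoplasmic reticulum, Chrnd, a receptor subunit, Ckm, the muscle creatine kinase, and Smyd1 and Myom2 were detected on no array. Tnnt3, fast troponin T, was detected on 2 wildtype arrays and 1 null array, and Casq2, the cardiac calsequestrin, on 1 wildtype array. At this signal over background a difference in these genes was not detectable, which does not show that they were silent. In all, 36 of the 81 member probes were above background on no array. Of the 25 tested genes, each was detected on at least 2 null arrays, so no gene-level change of a member rests on a group that was wholly at background.

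By isoform class, 3 of 4 tested slow or cardiac genes, 2 of 5 fast genes, 2 of 3 embryonic or neonatal genes and 4 of 13 genes of no single class were lower, with medians of -0.55, -0.45, -0.72 and -0.33. These classes are small and their differences were not tested.

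Averaged over the contractile genes, each null array lay below each wildtype array, but not to the same depth. The mean deviation of the 25 genes from their own 8-array means was 0.29, 0.29, 0.07 and 0.29 in the wildtype and -0.02, -0.34, -0.33 and -0.25 in the null. Null replicate 1 was thus nearer to the wildtype, and wildtype replicate 3 the lowest of its group. Over the 11 genes that passed, the deviations were 0.37, 0.49, 0.21 and 0.42 against -0.25, -0.45, -0.46 and -0.33. On null replicate 1, 12 of the 25 genes lay below the wildtype range, 11 inside and 2 above, whereas 22, 19 and 20 lay below it on replicates 2, 3 and 4. For all genes the shares below the wildtype range were 28.2%, 20.4%, 20.8% and 25.4% on null replicates 1 to 4.

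**Figure D5:**
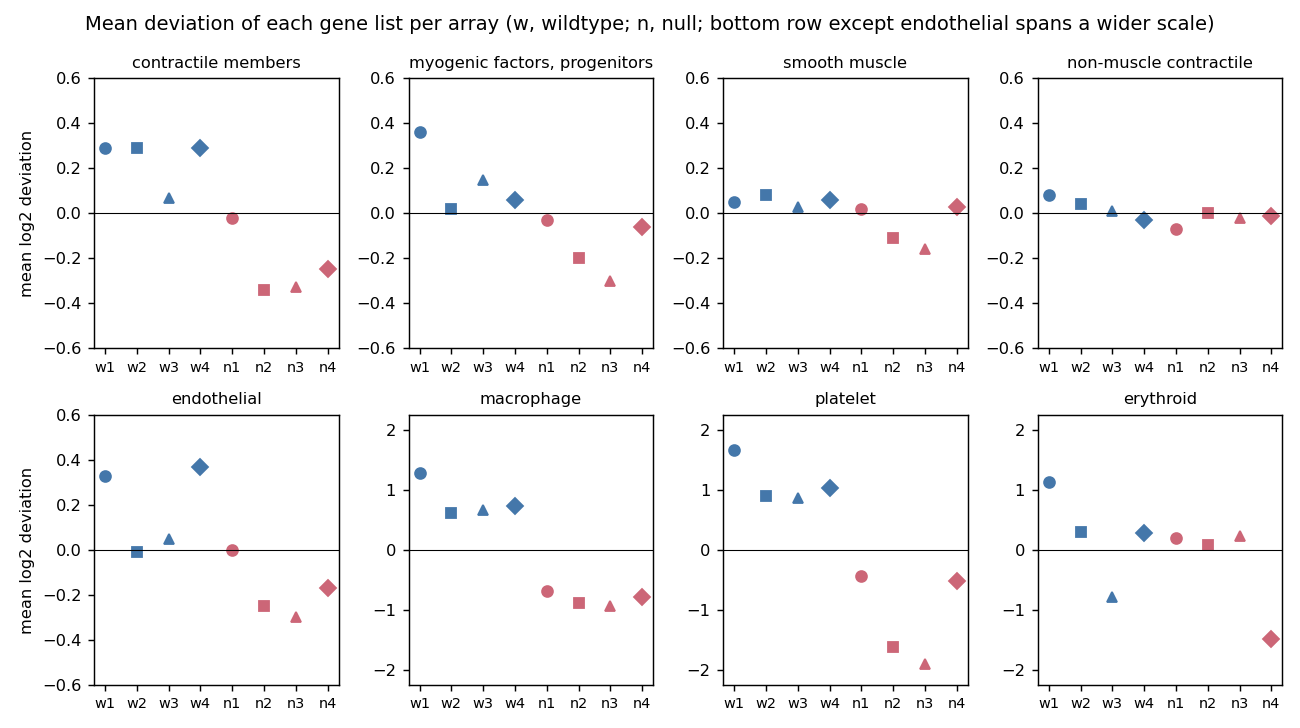
Mean log2 deviation (vertical axis) of 8 gene lists on each array (w, wildtype replicates 1 to 4; n, null replicates 1 to 4); the macrophage, platelet and erythroid panels span a wider scale than the others. The contractile list runs from 0.29 down to -0.34 and the non-muscle contractile list stays within 0.08 of zero, while the macrophage and platelet lists separate the genotypes on wider scales.

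Null replicates 2 and 3, which stood apart for sex-linked genes, also had the lowest platelet deviations (-1.62 and -1.90 against -0.44 and -0.51 on null replicates 1 and 4). Without both of these arrays 8 of the 11 genes still passed, and Tnnt1 (-0.39, adjusted p = 0.11), Tnnc1 (-0.46, adjusted p = 0.10) and Actn2 (-0.59, adjusted p = 0.073) did not. When the level of Y-linked genes entered as a term 6 of the 11 passed, Actc1, Tnnt1, Tnnc1, Ttn and Actn2 being lost. Since that level also differed between the genotypes, this fit cannot fully separate it from genotype. The methods name a scaling by median absolute deviation. Such scaling, applied here after the report's own background correction, left only Unc45b of the 11 (-1.27, adjusted p = 0.016). The other 10 kept their direction. With the authors' processed values, 9 of the 11 passed.

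Further lists of muscle genes had medians nearer to zero than the contractile genes, a difference that was not tested. Many of their genes with a named probe were too dim to test. Tested were 6 of 27 muscle structure genes and 8 of 13 excitation and calcium release genes. Of the postsynaptic and surface genes 6 of 16 were tested, and of the muscle metabolism genes 4 of 16. The medians thus describe the detected genes, not these lists as a whole. Of 6 tested genes from a further list of muscle structure genes, 2 were lower (median -0.18). Klhl41, a kelch protein of the sarcomere and its assembly, read 6.39, 6.46, 6.29 and 6.27 in the wildtype and 5.93, 5.85, 5.82 and 5.68 in the null (change -0.53 ± 0.08, adjusted p = 0.0084). Capn3, the muscle calpain that binds titin, changed by -0.59 ± 0.14 (adjusted p = 0.044), a call lost in 7 of 8 fits with 1 array left out (all but that without wildtype replicate 3; -0.64 to -0.45, adjusted p from 0.054 to 0.12). None of 8 genes of excitation and calcium release, 6 postsynaptic and surface genes or 4 muscle metabolism genes passed, with medians of 0.04, 0.02 and -0.06. At an unadjusted p under 0.05 these lists held 1, 1 and 0 lower genes and 1, 3 and 0 higher genes.

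The upstream regulators of muscle were mostly too dim to follow. Of 8 tested genes listed as myogenic factors and progenitor markers, 2 were lower and 0 higher (4 and 0 at an unadjusted p under 0.05, median -0.30). Cdh4, the cadherin R-cadherin, which is also made outside muscle, read 10.60, 10.47, 10.31 and 10.61 in the wildtype and 9.83, 9.73, 9.87 and 9.78 in the null (change -0.70 ± 0.09, adjusted p = 0.003). Msc, musculin, a bHLH repressor of myogenic cells, read 8.63, 8.64, 8.56 and 8.36 against 8.22, 7.75, 7.73 and 8.01 (change -0.62 ± 0.12, adjusted p = 0.023). The call of Msc was lost without any of wildtype replicates 1, 2 and 3 (-0.60, -0.59 and -0.62) or null replicates 2, 3 and 4 (-0.56, -0.56 and -0.65), with adjusted p from 0.0506 to 0.071. Myog, the factor that starts terminal differentiation and with it contractile gene expression, read 6.05, 5.65, 5.59 and 5.73 in the wildtype and 5.58, 5.62, 5.34 and 5.10 in the null (change -0.34 ± 0.14, adjusted p = 0.25). Its groups overlapped by a single null array. Myod1 was detected on 1 wildtype array only, and Myf5, Pax3 and Pax7, which mark myoblasts and their progenitors, on none.

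Contractile genes of other tissues gave no calls. None of 11 non-muscle contractile genes passed (2 lower and 1 higher at an unadjusted p under 0.05), with a median of 0.00 and summed levels of 39400 to 40800 in the wildtype and 39300 to 40000 in the null. Of 6 tested smooth muscle genes 0 passed and 0 reached an unadjusted p under 0.05 (median -0.13), with Acta2, the actin of smooth muscle and myofibroblasts, at -0.32 ± 0.15 (adjusted p = 0.34). The cardiac list held 2 tested genes, neither of which passed or reached an unadjusted p under 0.05 (median 0.03).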

How the data were processed

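RNA of sorted forelimb cells from 4 wildtype and 4 Bapx1 null samples was hybridised as biotinylated cRNA, 1 array per sample. The authors deposited probe intensity on a linear scale; it holds no value below 0 and was therefore taken as not background-subtracted, although the methods name background subtraction with the program GenomeStudio, whose version is not given in the sources used here. Beside it the authors deposited a fraction headed as a detection p-value, which rises with brightness, so the detection p was taken as 1 minus this value. A further deposited table holds the authors' processed log2 values, on which higher is brighter and whose baseline per probe is unknown; its column medians lay between -0.015 and 0.014. The 45281 probes of both tables were paired 1 to 1 by their differences between arrays (largest distance 3.0e-06, tolerance 1e-05). The platform annotation names 1 gene for 34885 probes, several for 18 (left unnamed), and none for 10378.

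R 4.3.3 with limma 3.58.1 was used. Its nec function corrected the background (normexp on negative controls inferred from detection, offset 16, which shrinks differences of dim probes), and log2 values were taken after quantile normalization. A probe was kept if detected (p under 0.05) on 4 or more of 8 arrays. Genotypes were compared by a two-sided limma fit (lmFit, eBayes), and p-values were adjusted over 20593 probes by Benjamini-Hochberg. A gene was counted by its brightest probe. A probe at background on a whole group is given as a bound, the mean of the bright group against the higher of the lowest detected signal and the probe's own on each dim array. Changes are null minus wildtype with the SE of the fit, and sums over gene lists are of linear normalized values of the brightest probes. The chain was tested on simulated data.

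Named genes are the members that passed, Mylpf and Acta1, the largest and smallest change in each role, members whose probes differ, up to 3 passing genes of each further muscle list, and Myod1, Myog, Pax7, Pax3 and Myf5. Other names were given after their values were seen. Members, lists and tests were chosen with earlier results of these data known. Alternatives covered scaling, background correction, the authors' values, filter, variance model including the methods' variance test per probe, array weights, the replicate number as a block, Y-linked level, testing per gene, and leaving out arrays. A chip block was not run, since no label gives the chip.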

Additional observations from a re-analysis of the deposited data

Results flagged for a closer look

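In 1 of 60 groups of 4 arrays examined, one array stood far from its group. Myom1 had a level of 7.0 on null replicate 1, while the other null arrays lay between 6.49 and 6.57 (the gap was 0.86 of the group's whole range). About 1 group in 20 is expected to exceed this limit by chance.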

How the results depend on the processing

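The count of members higher in the null was 0 under every setting tried. The 11 members lower in the null became 1 with scaling by median absolute deviation, 7 with the methods' variance test per probe and 6 with a term for Y-linked level, 8 to 13 with 1 array left out, and stayed within 1.5 times of 11 otherwise. Their median of -0.45 became -0.26 with no filter on dim probes (36 genes), and -0.57 to -0.36 with 1 array left out. The cause of these differences was not tested. The 812 probes passing over the whole array became 115 with that scaling, 333 with the authors' values, 382 with the variance test, 1872 with array weights and 1556 with the Y-linked term, and 449 to 639 with 1 array left out (449, 490, 482 and 486 without null replicates 2 and 4 and wildtype replicates 4 and 2). Direction turned for genes that did not pass: Actn3 to -0.02 with array weights and to -0.08 without null replicate 1 (-0.08 to 0.16 with 1 array left out), Mybpc1 to 0.12 with the Y-linked term and to 0.04 without null replicates 2 and 3, and Cdh15 to 0.05 and 0.06 under those, to 0.01 without wildtype replicate 1 and to 0.03 without null replicate 2 (-0.12 to 0.03 with 1 array left out). With the replicate number as a block, 433 probes and 10 members passed, Tnnc1 (adjusted p = 0.086) being the member lost. Samples of the same number correlated between -0.26 and 0.24, so the numbers were not taken to pair them. Signal over background limits all members with log2 levels near those of Mybpc1 and Actn3.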

Other observations

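In the list of postsynaptic and surface genes, from which no gene passed, 4 of 6 tested genes had groups that did not overlap, 1 of them lower in the null (14.5% of all tested genes in either direction). These genes are named here after their values were seen. Chrnb1, the beta subunit of the muscle acetylcholine receptor, read 8.50, 8.39, 8.38 and 8.41 in the wildtype and 8.18, 8.0, 8.08 and 8.20 in the null (change -0.30 ± 0.08, adjusted p = 0.061 by limma). Ncam1, an adhesion protein of muscle, nerve and condensing mesenchyme, read 10.83, 10.46, 10.94 and 10.54 against 11.98, 11.17, 10.96 and 11.72 (change 0.77 ± 0.22, adjusted p = 0.097). Sgcb, the beta-sarcoglycan of the membrane complex around dystrophin, read 9.36, 9.40, 9.47 and 9.24 against 9.51, 9.80, 9.79 and 9.71 (change 0.34 ± 0.09, adjusted p = 0.083). Chrne, the adult receptor subunit, read 5.28, 5.29, 5.26 and 5.18 against 5.44, 5.51, 5.41 and 5.44 (change 0.20 ± 0.07, adjusted p = 0.16).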
